A study of Mus musculus with 4 samples.

Results

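The genes that make, attach, modify and remove sialic acids were examined in CD8+ T cells enriched from percutaneous tumour grafts of male wild type C57BL/6 mice. The list names 33 genes by symbol, and 32 of them were found among the 36464 Ensembl IDs of the deposited files. They correspond to 33 IDs, because St6galnac2 is carried by 2 IDs, and St6gal2 was not analysed here. An antibody against SIGLEC15 or IgG was injected intraperitoneally for 2 weeks, with graft collection at day 19 and 6 grafts per treatment. Since 3 cell pellets were mixed for each library, there were 2 libraries per treatment. The study asks how CD8+ T cells in the tumour change when SIGLEC15 is blocked. The labels do not name the grafted tumour line, the antibody clone or the dose.

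Sialic acids are sugars that cap the glycans of cell surface proteins and lipids. They are built from UDP-N-acetylglucosamine in the cytosol, activated to CMP-sialic acid in the nucleus, carried into the Golgi and transferred by sialyltransferases, each of which forms a particular linkage on particular glycans. Sialidases remove them again, and Siglecs, the receptor family to which SIGLEC15 belongs, read them. In T cells, the sialylation of surface glycoproteins changes with activation and affects the binding of lectins, selectins and Siglecs.

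The values are RPKM, counted reads scaled by the exon length of the gene and the size of the library. A comparison of RPKM between genes depends on the annotated exon length, which was 20091 bases for St8sia4 and 2923 for St3gal4. The number of counted reads lay between 14854802 and 16026197 per library, of which 8.92% and 18.4% were mitochondrial with anti-SIGLEC15, against 11.9% and 13.0% with IgG. The libraries were not equally rich in T cell transcripts. Summed over the 21 T cell identity genes found of 22 listed, the level was 2614 and 2745 RPKM in anti-SIGLEC15 replicates 1 and 2, against 970.1 and 2899 RPKM in IgG replicates 1 and 2. Cd8a, a chain of the CD8 coreceptor, had 290.2 and 315 RPKM with anti-SIGLEC15, against 115 and 351 RPKM with IgG, and Cd3e, a subunit of the T cell receptor complex, 31.4 and 30.2 RPKM with anti-SIGLEC15, against 11.03 and 35.9 RPKM with IgG. The 16 genes of hepatocytes and hepatoma cells summed to 2638 and 1265 RPKM with anti-SIGLEC15, against 5986 and 1232 RPKM with IgG, and Alb, the albumin gene, measured 1089 and 625 RPKM with anti-SIGLEC15, against 2795 and 556 RPKM with IgG. The 12 neutrophil genes summed to 242 and 381 RPKM with anti-SIGLEC15, against 921 and 85.2 RPKM with IgG, and S100a9 measured 149 and 245 RPKM with anti-SIGLEC15, against 579 and 46.7 RPKM with IgG. The 12 macrophage and monocyte genes summed to 53.4 and 80.8 RPKM with anti-SIGLEC15, against 107.9 and 40.2 RPKM with IgG, with Cd68 between 24.5 and 31.01 RPKM in the 4 libraries. The 8 epithelial genes summed to 842 and 579 RPKM with anti-SIGLEC15, against 2297 and 441 RPKM with IgG. Of the marker lists, the 6 red cell genes were the one whose sum did not overlap between the treatments, with sums of 113 and 19.9 RPKM with anti-SIGLEC15, against 691 and 1929 RPKM with IgG, and 5 of the 5 tested had an unadjusted p under 0.05 (adjusted p = 1 in limma). Red cells are not part of the labelled cell type, and their part in the results was not tested. The 8 B cell, 8 endothelial and 8 fibroblast genes summed to at most 3.02 RPKM in any library. No marker of any list was at 0 in all 4 libraries. All 21 T cell identity genes were lowest in IgG replicate 1, and 11 of the 12 neutrophil genes were highest there. Of the 12 macrophage and monocyte genes 6 were highest and 2 lowest there, and of the 8 epithelial genes 6 were highest and 2 lowest. The hepatocyte sum was highest in IgG replicate 1 too, but 8 of the 16 hepatocyte genes were highest in anti-SIGLEC15 replicate 1 and 8 in IgG replicate 1. Averaged as log2(RPKM + 1) and turned back to RPKM, the hepatocyte list stood at 41.4 and 12 RPKM with anti-SIGLEC15, against 40.7 and 15.3 RPKM with IgG. In such bulk samples, fewer cells of a type and less RNA per cell cannot be told apart.

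Expression was spread unevenly over the pathway. Of the 32 symbols, 20 reached the level required for testing, at least 1 RPKM in at least 2 libraries, and 12 did not. Nans, the synthase that makes the phosphate form of sialic acid, had the highest level of the members in every library, with 33.1 and 26.2 RPKM in the anti-SIGLEC15 libraries against 33.7 and 30.9 RPKM in the IgG libraries. Neu1, the lysosomal sialidase, had the second highest level in 3 libraries and stood below St3gal1 in IgG replicate 1. By RPKM, the most abundant sialyltransferase transcripts were St3gal1 and St3gal4, followed by St3gal6, St6galnac4 and St6galnac6 in both anti-SIGLEC15 libraries. At the other end, St8sia3 and St8sia5 had 0 reads in all 4 libraries.

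**Figure D1:**
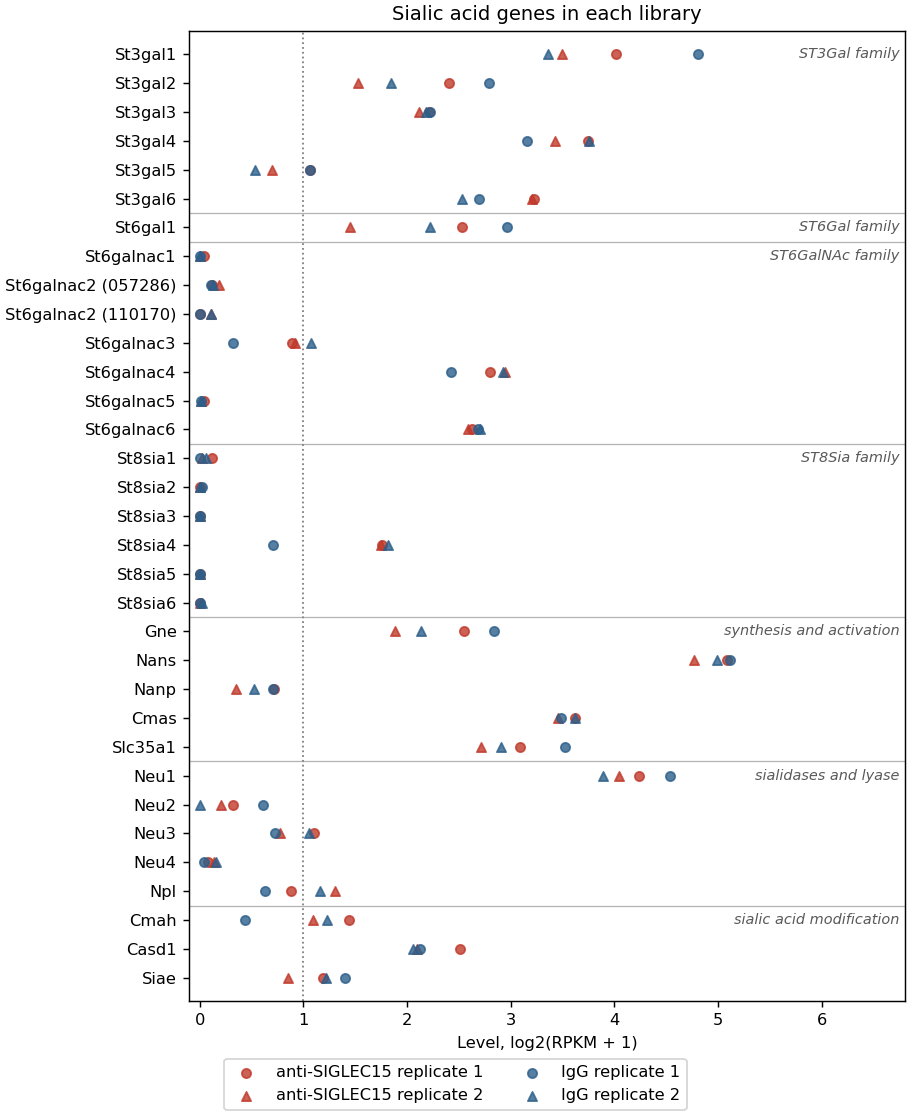
Level of each sialic acid gene as log2(RPKM + 1) in the 2 anti-SIGLEC15 libraries (red) and the 2 IgG libraries (blue), grouped by enzyme class, where circles are replicate 1, triangles replicate 2 and the dotted line 1 RPKM. Nans lies farthest right in every library, and St6galnac1, St6galnac5, St8sia2, St8sia3, St8sia5 and St8sia6 lie at or near 0.

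None of the sialic acid genes passed the test between the treatments. The model, limma on log2(RPKM + 1) across 12484 genes with Benjamini-Hochberg adjustment, called 0 of the 20 tested members and 0% of all tested genes at an adjusted p of 0.05. At an unadjusted p under 0.05 it called 0 members and 146 genes in all (1.17%). A second fit, limma-voom on reads recovered from the RPKM values, likewise called 0 (0%) of 15061; its unadjusted p was under 0.05 for 90 of them (0.598%). The log2 fold changes of the members, anti-SIGLEC15 minus IgG, ran from -0.60 to 0.61 with a median of -0.03, beside a median of 0.02 over all tested genes. Of the 20 tested members, 9 had a fold change above 0 and 11 below, while after scaling to the T cell identity genes 2 were above and 18 below, where the median of all tested genes was -0.59. In 1 member (5%) both anti-SIGLEC15 libraries lay above both IgG libraries, where 12.1% of all tested genes did so, and in 2 members (10%) both lay below, where 6.02% of all tested genes did so. After T cell scaling the counts were 0 and 0 members, beside 2.92% and 13.6% of all tested genes. With 2 libraries per treatment, the smallest two-sided exact permutation p for a single value is 0.333.

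**Figure D2:**
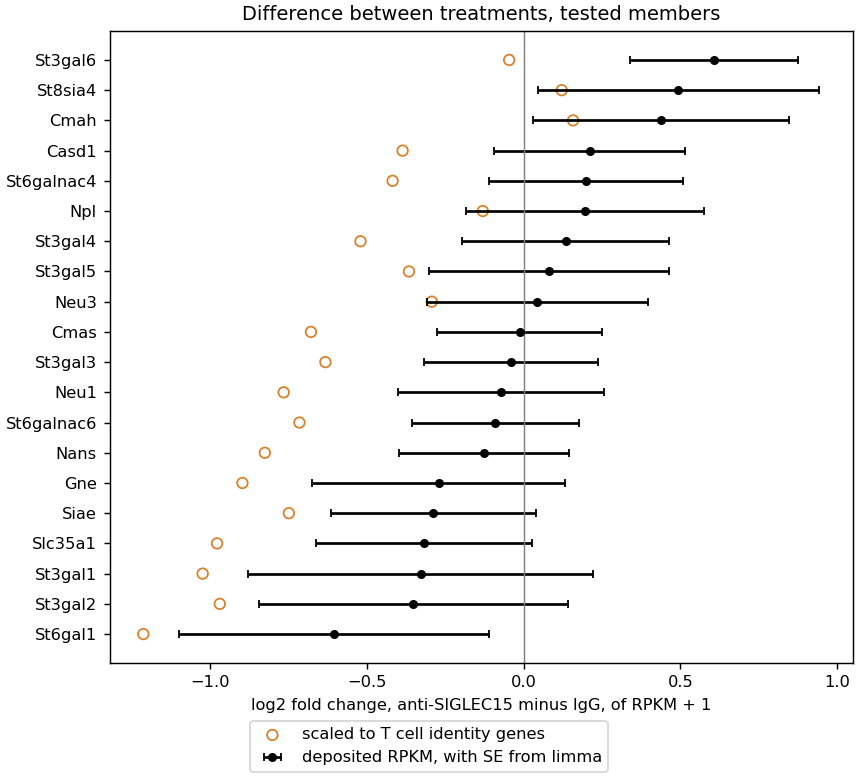
Log2 fold change of RPKM + 1, anti-SIGLEC15 minus IgG, of the 20 tested members. Black points and bars give the limma estimate with its standard error on the deposited RPKM, and open circles the estimate after scaling to the T cell identity genes, which moves the median of all tested genes to -0.59. St3gal6 has the highest estimate (0.61) and St6gal1 the lowest (-0.60).

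St3gal6 was the 1 member that lay higher in both anti-SIGLEC15 libraries. Its enzyme adds alpha-2,3-linked sialic acid to N-acetyllactosamine ends of glycans and, with that of St3gal4, contributes to selectin ligands on mouse leukocytes. The gene (ENSMUSG00000022747) lies on the minus strand of chromosome 16, from 58468125 to 58524243 in GRCm38. It measured 8.37 and 8.21 RPKM in the anti-SIGLEC15 libraries, against 5.47 and 4.76 RPKM in the IgG libraries. These levels rest on 811 and 753 reads with anti-SIGLEC15, against 541 and 456 reads with IgG. The libraries of each treatment lay close together and the treatments did not overlap, and the exact Poisson 95% intervals, which cover counting error only, ended at 7.64 RPKM on the lower side of the anti-SIGLEC15 pair and at 5.95 RPKM on the upper side of the IgG pair. The log2 fold change was 0.61 (SE 0.27, 95% interval -0.07 to 1.28), with an unadjusted p of 0.0697 and an adjusted p of 1 in limma. It ran from 0.52 to 0.69 when each library was left out in turn. Because the treatments did not overlap, these values had to stay above 0. They and the counting intervals come from the same RPKM values and are not a second observation. After T cell scaling the fold change of St3gal6 was -0.046, beside a median of -0.59 over all tested genes, and the treatments then overlapped. Over 1603 bases, 26% of their length, its exons overlap those of Dcbld2 on the opposite strand, and the labels do not say whether reads were counted by strand. Dcbld2 measured 2.77 and 1.47 RPKM with anti-SIGLEC15, against 6.53 and 1.496 RPKM with IgG, and its libraries overlapped between the treatments. The 250 bases before the upstream start of St3gal6 are shown in RefSeq's GRCm38.p6 sequence, because this is the member whose treatments did not overlap upward, and no motif searched is in them. A second window of St3gal6, chr16:58523427-58523676, which overlaps annotated exons of the gene and is not shown, has 4 matches to the GC box, 64.4% GC and 16 CpG pairs, while the window shown has 34.8% GC and 1 CpG pair.
St3gal6, chr16:58524254-58524503, minus strand: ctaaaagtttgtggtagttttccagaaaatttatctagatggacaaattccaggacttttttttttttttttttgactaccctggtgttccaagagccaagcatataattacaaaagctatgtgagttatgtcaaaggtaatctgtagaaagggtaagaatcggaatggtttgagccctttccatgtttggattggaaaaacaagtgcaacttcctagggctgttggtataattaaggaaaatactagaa

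The remaining ST3Gal genes overlapped between the treatments. St3gal1, whose enzyme caps core 1 O-glycans and is needed for the survival of naive CD8+ T cells in mice, had 15.22 and 10.3 RPKM with anti-SIGLEC15, against 27.03 and 9.27 RPKM with IgG. IgG replicate 1 stood above the other 3 libraries. In that library 11 of the 12 neutrophil genes were highest, as were the hepatocyte, epithelial and macrophage sums. Gene by gene, 6 of the 8 epithelial genes were highest there and 2 lowest. Of the 12 macrophage and monocyte genes, 6 were highest there and 2 lowest. The mean of the hepatocyte genes on the log2 scale was not highest there. The part of these cells in the level of St3gal1 was not tested. The log2 fold change of St3gal1 was -0.33 (SE 0.55, adjusted p = 1 in limma). Leaving out IgG replicate 1 gave 0.40. Leaving out IgG replicate 2 gave -1.05, and there St3gal1 was the 1 member called (limma adjusted p = 0.0195), among 2129 calls in all. On simulated reads the same model, with all 4 libraries, made more false calls than its threshold allows. The simulated libraries of a treatment differed by random spread only, and the fit without a library was not simulated. The simulation therefore does not decide whether this call is false. St3gal2, which acts on gangliosides and core 1 glycans, had 4.30 and 1.88 RPKM with anti-SIGLEC15, against 5.93 and 2.58 RPKM with IgG. Replicate 1 was the higher library of both treatments, as it was for the hepatocyte and epithelial sums. St3gal4, the other main enzyme for lactosamine ends, had 12.4 and 9.79 RPKM with anti-SIGLEC15, against 7.90 and 12.5 RPKM with IgG, so that its lowest library was IgG replicate 1. Its exons share 14.1% of their length with the processed transcript 4930581F22Rik on the opposite strand. St3gal3 hardly varied, with 3.64 and 3.33 RPKM with anti-SIGLEC15, against 3.67 and 3.54 RPKM with IgG. St3gal5, the synthase of the ganglioside GM3, was low, with 1.10 and 0.617 RPKM with anti-SIGLEC15, against 1.10 and 0.443 RPKM with IgG. The log2 fold changes of St3gal2, St3gal3, St3gal4 and St3gal5 were -0.35, -0.04, 0.13 and 0.08, with standard errors of 0.28 to 0.49 (adjusted p = 1 in limma for each).

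St3gal1 took its largest share of the sialyltransferase transcripts in IgG replicate 1. It made up 23.6% and 20.1% of the summed sialyltransferase RPKM in the anti-SIGLEC15 libraries, against 39.4% and 17.6% in the IgG libraries. St3gal4 made up 19.3% and 19.2% with anti-SIGLEC15, against 11.5% and 23.7% with IgG. For St3gal6 the shares were 13.0% and 16.1% with anti-SIGLEC15, against 7.97% and 9.04% with IgG. They did not overlap between the treatments, but they come from the same RPKM values and are not a second observation. The sum itself, over 19 symbols, was 64.4 and 51.02 RPKM with anti-SIGLEC15, against 68.7 and 52.7 RPKM with IgG, so replicate 1 was the higher of each pair.

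St6gal1 was the only ST6Gal gene analysed, and its fold change was the lowest of the members. Its enzyme adds alpha-2,6-linked sialic acid to N-glycans, the linkage read by the B cell Siglec CD22, and it is abundant in liver. It had 4.77 and 1.73 RPKM with anti-SIGLEC15, against 6.78 and 3.67 RPKM with IgG. The treatments overlapped, and replicate 1 was the higher library of each. The log2 fold change was -0.60 (SE 0.49, 95% interval -1.88 to 0.67, adjusted p = 1 in limma), and with a library left out it ran from -1.15 (without anti-SIGLEC15 replicate 1) to -0.0634 (without anti-SIGLEC15 replicate 2), with -0.24 without IgG replicate 1 and -0.97 without IgG replicate 2.

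Of the ST6GalNAc genes, which add alpha-2,6-linked sialic acid to N-acetylgalactosamine, St6galnac4 and St6galnac6 reached the level for testing and 4 did not. St6galnac4, which makes disialylated core 1 glycans, had 5.98 and 6.70 RPKM with anti-SIGLEC15, against 4.36 and 6.604 RPKM with IgG, and its log2 fold change was 0.20 (SE 0.31). St6galnac6, which acts mainly on gangliosides, had 5.16 and 5.01 RPKM with anti-SIGLEC15, against 5.44 and 5.50 RPKM with IgG. Both anti-SIGLEC15 libraries lay lower, by a log2 fold change of -0.09 (SE 0.27, adjusted p = 1 in limma), though no longer after T cell scaling. The 2 genes follow each other on the plus strand of chromosome 2, with 10 bases between the end of St6galnac4 (32599698) and the start of St6galnac6 (32599709). St6galnac3 had 0.850 and 0.891 RPKM with anti-SIGLEC15, against 0.250 and 1.10 RPKM with IgG and missed the level for testing in all but 1 library. St6galnac1, whose enzyme makes the sialyl-Tn antigen, a glycan that SIGLEC15 is known to bind, had 1 read in anti-SIGLEC15 replicate 1 and 0 reads in the other 3 libraries. With 3 reads its level would be 0.0783 to 0.0844 RPKM, depending on the library, and a level below this could not be told from 0 at this depth. St6galnac5 had 1 to 3 reads per library, and the 2 IDs of St6galnac2 had 7 to 12 reads and 0 to 2 reads. These IDs share 383 bases of exon, so reads could be split between them.

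St8sia4 was the only one tested of the 6 ST8Sia genes, which build chains of sialic acid on sialic acid. Its enzyme makes polysialic acid, and the gene (ENSMUSG00000040710) lies on the minus strand of chromosome 1, from 95587682 to 95667571. It had 2.38 and 2.35 RPKM with anti-SIGLEC15, against 0.630 and 2.51 RPKM with IgG. The other libraries lay together and IgG replicate 1 lay below them, at 0.251 times IgG replicate 2, and the T cell identity genes were lowest in that library too. The log2 fold change was 0.49 (SE 0.45, adjusted p = 1 in limma), 0.92 in limma-voom, -0.0598 without IgG replicate 1 and 1.05 without IgG replicate 2. St8sia1, the synthase of the ganglioside GD3, had 13 and 2 reads with anti-SIGLEC15, against 0 and 6 reads with IgG. St8sia6 had 2 reads and St8sia2 1 read, each in a single IgG library. For St8sia3 and St8sia5, with 0 reads, 3 reads would correspond to at most 0.0173 and 0.0372 RPKM. The window before the start of St8sia4 is shown because the gene was lowest in IgG replicate 1. In all, 6 of the 20 tested members were lowest there and 10 were highest there. The same counts over all tested genes were not made, so these counts cannot be set against them. The T cell identity genes and the 8 B cell genes were lowest in that library too. Capitals mark the motif matches in the window.
St8sia4, chr1:95667595-95667844, minus strand: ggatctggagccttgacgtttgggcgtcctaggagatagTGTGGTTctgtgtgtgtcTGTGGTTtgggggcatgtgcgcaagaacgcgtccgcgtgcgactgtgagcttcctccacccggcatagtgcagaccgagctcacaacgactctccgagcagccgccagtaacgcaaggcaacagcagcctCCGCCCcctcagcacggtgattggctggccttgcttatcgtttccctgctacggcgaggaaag
The capitals are a pair of matches to TGTGGTT, a core of RUNX sites, and 1 match to the GC box GGGCGG read on the other strand.

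Of the enzymes that make and activate sialic acid, Cmas, which activates sialic acid to its CMP form, varied least. It had 11.3 and 10.01 RPKM with anti-SIGLEC15, against 10.2 and 11.3 RPKM with IgG. Its log2 fold change was -0.01 (SE 0.26, 95% interval -0.68 to 0.65), and that of Nans was -0.13 (SE 0.27, 95% interval -0.81 to 0.56), and both intervals reach past a 1.5-fold decrease. Gne, the enzyme of the first and rate-limiting steps, had 4.87 and 2.69 RPKM with anti-SIGLEC15, against 6.16 and 3.40 RPKM with IgG. Slc35a1, the Golgi transporter of CMP-sialic acid, had 7.50 and 5.55 RPKM with anti-SIGLEC15, against 10.5 and 6.49 RPKM with IgG. For both genes replicate 1 was the higher library of each treatment, and the log2 fold changes were -0.27 for Gne (SE 0.40) and -0.32 for Slc35a1 (SE 0.34). That of Slc35a1 was -0.0063 without IgG replicate 1, -0.13 without anti-SIGLEC15 replicate 2, -0.51 without anti-SIGLEC15 replicate 1 and -0.63 without IgG replicate 2. Nanp, the phosphatase between Nans and Cmas, lay under the level for testing, with 0.642 and 0.271 RPKM with anti-SIGLEC15, against 0.629 and 0.433 RPKM with IgG, from 6 to 15 reads. Nans shares 1356 bases of its exons, 29.6%, with Trim14 on the opposite strand, and Trim14 measured 5.04 and 2.47 RPKM with anti-SIGLEC15, against 5.28 and 3.11 RPKM with IgG. Gne, Nans and Slc35a1 lie on chromosome 4 together with St3gal3, where the nearest pair, Gne and Nans, is 2405070 bases apart.

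Among the genes that remove sialic acid, Neu1 was the main sialidase. It had 17.8 and 15.5 RPKM with anti-SIGLEC15, against 22.2 and 13.8 RPKM with IgG, with a log2 fold change of -0.07 (SE 0.33, adjusted p = 1 in limma). Ctsa, the cathepsin that holds Neu1 in its lysosomal complex, had 58.5 and 53.1 RPKM with anti-SIGLEC15, against 65.8 and 56.4 RPKM with IgG, with the highest level in the same library as Neu1. Neu3, the sialidase of the plasma membrane that acts on gangliosides, had 1.14 and 0.705 RPKM with anti-SIGLEC15, against 0.654 and 1.08 RPKM with IgG. Npl, the lyase that breaks down free sialic acid, had 0.839 and 1.48 RPKM with anti-SIGLEC15, against 0.548 and 1.24 RPKM with IgG. The treatments overlapped in both, with log2 fold changes of 0.04 for Neu3 (SE 0.35) and 0.20 for Npl (SE 0.38). Neu2 and Neu4 were not tested. Neu2, the cytosolic sialidase, had 10 and 6 reads with anti-SIGLEC15, against 22 and 0 reads with IgG, and Neu4 had 2 to 8 reads per library. Neu2 shares 123 bases of its exons, 4.75%, with Ngef on the opposite strand. Ngef measured 3.1 and 1.69 RPKM with anti-SIGLEC15, against 7.11 and 1.585 RPKM with IgG, and was highest in the same library as Neu2. The part of Ngef reads in the level of Neu2 was not tested.

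The modifying enzymes are the hydroxylase Cmah, the acetyltransferase Casd1 and the esterase Siae. Cmah, the hydroxylase that turns N-acetylneuraminic acid into the glycolyl form that mice have and humans lack, had 1.72 and 1.14 RPKM with anti-SIGLEC15, against 0.357 and 1.34 RPKM with IgG. As for St8sia4, the lowest library was IgG replicate 1, and the log2 fold change of 0.44 (SE 0.41, adjusted p = 1 in limma) became 0.046 without it, 0.83 without IgG replicate 2, and 1.03 in limma-voom. Casd1, which adds acetyl groups to sialic acid, had 4.70 and 3.27 RPKM with anti-SIGLEC15, against 3.37 and 3.16 RPKM with IgG, and its log2 fold change was 0.21 (SE 0.30), with 0.0013 without anti-SIGLEC15 replicate 1 and 0.42 without anti-SIGLEC15 replicate 2. Siae, the esterase that takes such groups off, had 1.29 and 0.808 RPKM with anti-SIGLEC15, against 1.65 and 1.33 RPKM with IgG, which placed both anti-SIGLEC15 libraries below both IgG libraries, though no longer after T cell scaling. Its log2 fold change was -0.29 (SE 0.33, 95% interval -1.11 to 0.54, adjusted p = 1 in limma), and it was -0.46 without anti-SIGLEC15 replicate 1 and -0.12 without anti-SIGLEC15 replicate 2. Siae shares 741 bases of its exons, 7.06%, with Tbrg1 and 391 bases, 3.72%, with Spa17, both on the opposite strand. Tbrg1 measured 22.9 and 22.2 RPKM with anti-SIGLEC15, against 22.01 and 24.8 RPKM with IgG. Whether reads were counted by strand is not in the labels, and the part of Tbrg1 reads in the level of Siae was not tested. The 250 bases before the first start of Cmah, on chromosome 13, are shown beside those of St8sia4. Both genes were among the 6 tested members lowest in IgG replicate 1.
Cmah, chr13:24327154-24327403, plus strand: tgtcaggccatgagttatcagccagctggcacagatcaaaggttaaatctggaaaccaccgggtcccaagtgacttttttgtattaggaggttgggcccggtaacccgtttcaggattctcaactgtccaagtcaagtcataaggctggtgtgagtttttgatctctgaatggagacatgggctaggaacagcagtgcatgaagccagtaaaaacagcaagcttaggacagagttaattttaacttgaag
They hold none of the motifs searched, and 3 CpG pairs, where the window of St8sia4 holds 19.

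Windows of 250 bases before a start were present for 22 of the member symbols, 30 windows in all. The motifs were searched on both strands. They were the GC box GGGCGG, the ETS core CCGGAAGT, the RUNX core TGTGGTT, the E-box CACGTG, the TATA box TATAAA and the CRE TGACGTCA. The GC box was in 46.7% of the member windows and in 32.7% of all 32817 windows. The RUNX core was in 3.33% of member windows and 4.39% of all, the E-box in 6.67% of member windows and 6.02% of all, and the TATA box in 6.67% of member windows and 12.4% of all. The ETS core and the CRE were in 0% of the member windows, and in 2.88% and 1.55% of all. These matches describe letters only.

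Summed by class, the levels overlapped between the treatments. The ST3Gal genes summed to 39.6 ± 7.72 RPKM with anti-SIGLEC15 and 42.1 ± 12.7 RPKM with IgG (SD, n = 2 each). The genes of synthesis and activation summed to 51.1 ± 8.93 RPKM with anti-SIGLEC15 and 56.8 ± 6.17 RPKM with IgG, and the sialidases with the lyase to 19.01 ± 1.55 RPKM with anti-SIGLEC15 and 20.1 ± 5.43 RPKM with IgG. The ST6GalNAc genes summed to 12.5 ± 0.490 RPKM with anti-SIGLEC15 and 11.8 ± 2.29 RPKM with IgG, and the modifying enzymes to 6.46 ± 1.77 RPKM with anti-SIGLEC15 and 5.60 ± 0.319 RPKM with IgG. For the ST8Sia genes the sums were 2.42 ± 0.0778 RPKM with anti-SIGLEC15 and 1.61 ± 1.36 RPKM with IgG. The sums tested numbered 8, with that of St6gal1 and that over all sialyltransferases. The two-sided exact permutation p was 0.667 or 1 for each, and 1 after Benjamini-Hochberg adjustment.

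**Figure D3:**
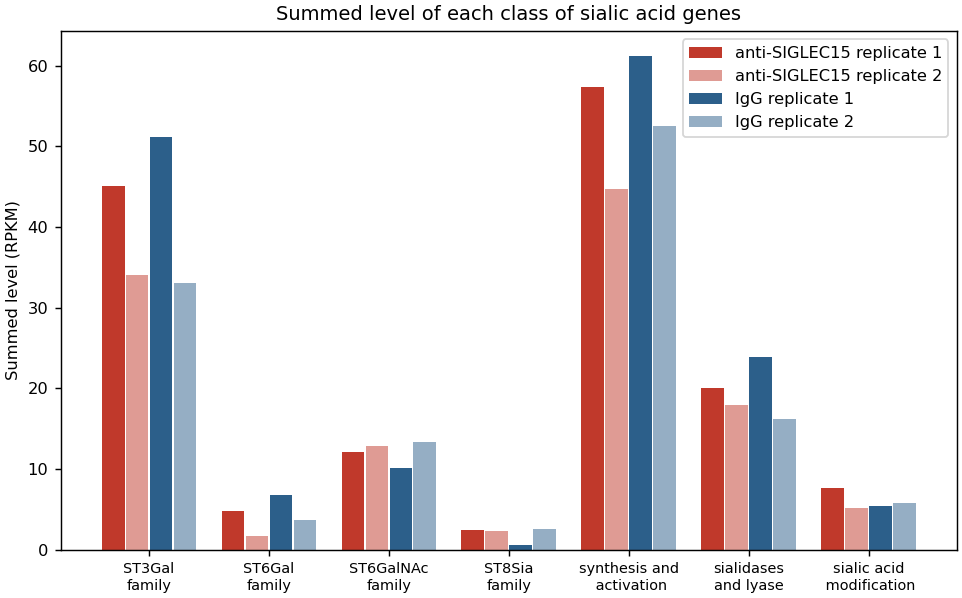
Summed level in RPKM of each class of sialic acid genes, with 1 bar per library and from left to right anti-SIGLEC15 replicates 1 and 2 and IgG replicates 1 and 2. The ST3Gal sum is 45.02 and 34.1 RPKM with anti-SIGLEC15 and 51.1 and 33.1 RPKM with IgG, so the replicate 1 bars are the taller ones in both treatments.

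Libraries of the same treatment differed from each other in many of these genes. In IgG replicate 1, 7 of the 20 tested members were over 1.5-fold higher than in IgG replicate 2, 6 were lower by the same factor and 7 lay between. The 7 were St3gal1 (ratio 2.92), St3gal5 (2.47), St3gal2 (2.30), St6gal1 (1.85), Gne (1.81), Slc35a1 (1.62) and Neu1 (1.61). On the other side were St8sia4 (0.251), Cmah (0.267), Npl (0.442), Neu3 (0.605), St3gal4 (0.633) and St6galnac4 (0.660). The same ratio of sums was 4.86 for the hepatocyte genes, 5.21 for the epithelial genes, 10.8 for the neutrophil genes and 2.68 for the macrophage genes. It was 0.335 for T cell identity, 0.378 for the CD8 lineage, 0.358 for the red cell genes and 0.258 for the B cell genes, which were all under 1 RPKM. In the anti-SIGLEC15 pair, 12 members lay within 1.5-fold, 7 were higher in replicate 1 and 1, Npl, was lower. The same counts over all tested genes were not made, so whether the members differed more than other genes cannot be read here. Over all tested genes, log2(RPKM + 1) correlated at a Pearson r of 0.884 in the IgG pair and 0.972 in the anti-SIGLEC15 pair. The hepatocyte sum was 2.09 times and the epithelial sum 1.455 times as high in anti-SIGLEC15 replicate 1 as in replicate 2. The T cell sum had a ratio of 0.952. In the same pair the ratio was 0.634 for the neutrophil, 0.661 for the macrophage, 5.69 for the red cell and 1.695 for the B cell sum. The neutrophil and macrophage sums were thus higher in replicate 1 with IgG and in replicate 2 with anti-SIGLEC15. St6gal1 (2.76), St3gal2 (2.28), Gne (1.81) and St3gal5 (1.77) were thus over 1.5-fold higher in replicate 1 of both treatments. St3gal1 (1.48), Slc35a1 (1.35) and Neu1 (1.15) were also higher in anti-SIGLEC15 replicate 1, by less than 1.5-fold. The part of other cell types in these levels was not tested. St3gal5, Npl and Neu3 rest on 18 to 65 reads per library, so their ratios carry more counting error.

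**Figure D4:**
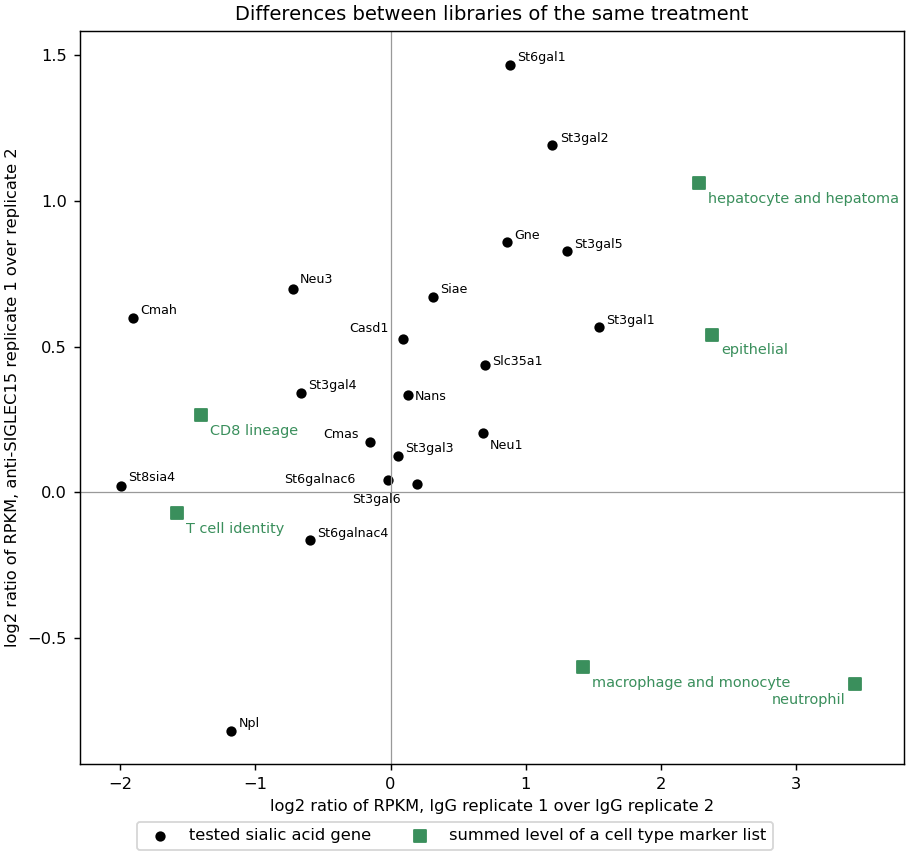
Log2 ratio of RPKM between the 2 IgG libraries (x axis) and between the 2 anti-SIGLEC15 libraries (y axis), replicate 1 over replicate 2, of each tested sialic acid gene (black) and of the summed level of marker lists (green squares). The hepatocyte and epithelial lists lie in the upper right. So do St6gal1, St3gal2, Gne and St3gal5, and other members such as St3gal1, Slc35a1 and Neu1. The neutrophil and macrophage lists lie in the lower right. St8sia4 and Cmah lie farthest left of the members, on the side of the T cell and CD8 lists.

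The pathways that supply and carry sialic acid were read from 7 lists with 67 genes, of which 57 were tested. In limma 0 of them passed and 0 had an unadjusted p under 0.05, and their median log2 fold change was 0.01. The treatments did not overlap in 6 of the 57: 4 of these were higher with anti-SIGLEC15 and 2 lower, where 12.1% and 6.02% of all tested genes were. In the hexosamine supply list, 0 of 10 tested members lay higher and 1 lower, with a median of -0.21. Of the 7 lists, this was the only one whose sum did not overlap between the treatments. Over its 12 genes the sum was 61.5 and 59 RPKM with anti-SIGLEC15, against 79.05 and 64.7 RPKM with IgG. No test was run on the sums of these lists. The most abundant member of the hexosamine list, Uap1, makes UDP-N-acetylglucosamine. It had 12.7 and 19.7 RPKM with anti-SIGLEC15, against 14.1 and 20.8 RPKM with IgG. The lower member was Pgm3, a mutase one step before it, with 1.93 and 1.5 RPKM with anti-SIGLEC15, against 2.82 and 2.08 RPKM with IgG. Of the 7 lysosomal partners, 0 lay apart, and Hexa, a hexosaminidase subunit, had 12.1 and 9.24 RPKM with anti-SIGLEC15, against 15.4 and 10.4 RPKM with IgG.

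The acceptor glycans were covered by the lists of N-glycan branching, galactose acceptors and O-glycan cores. Among 11 tested genes of N-glycan branching, the treatments did not overlap in Mgat2 and Mgat5, which were named after their values were seen. Mgat2, which starts the second antenna, had 20.7 and 17.1 RPKM with anti-SIGLEC15, against 14.5 and 16.8 RPKM with IgG, and Mgat5, which adds the most highly branched arm, had 1.84 and 1.24 RPKM with anti-SIGLEC15, against 2.34 and 1.94 RPKM with IgG. Mgat4b, a branching transferase, was highest in IgG replicate 1, with 16.1 and 11.7 RPKM with anti-SIGLEC15, against 33.2 and 12.3 RPKM with IgG. B4galt1, which adds the galactose that most N-glycan sialic acid sits on, had 23.4 and 30.9 RPKM with anti-SIGLEC15, against 25.1 and 23.3 RPKM with IgG. B3gnt5, which starts lactosamine on lipids, was the 1 higher gene of 6 tested galactose acceptor genes, with 2.54 and 2.33 RPKM with anti-SIGLEC15, against 0.708 and 2.23 RPKM with IgG. Of 12 tested O-glycan genes 0 lay apart. Galnt1, which starts O-glycans, had 21.6 and 16.4 RPKM with anti-SIGLEC15, against 16.8 and 23.3 RPKM with IgG, and Galnt6, of the same family, 13.7 and 9.90 RPKM with anti-SIGLEC15, against 4.35 and 12.5 RPKM with IgG.

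The ganglioside genes included the most abundant glycan enzyme of all these lists. B4galnt1, which makes the gangliosides GM2 and GD2, had 84.2 and 91.7 RPKM with anti-SIGLEC15, against 52.5 and 111.1 RPKM with IgG. St3gal5 and St8sia1, whose enzymes make the sialylated lipids it acts on, were low in all 4 libraries. Ugcg, which makes glucosylceramide, the base of these lipids, had 30.1 and 41.2 RPKM with anti-SIGLEC15, against 20.6 and 28.6 RPKM with IgG and lay higher in both anti-SIGLEC15 libraries, with a log2 fold change of 0.52 (SE 0.32, adjusted p = 1 in limma). The other higher gene of 4 tested was B3galt4, which extends GM2 to GM1 and was named after its values were seen, with 3.02 and 2.98 RPKM with anti-SIGLEC15, against 1.07 and 2.69 RPKM with IgG. The sialylated carriers of T cells, with 7 tested genes and 0 apart, had a median of 0.51. Ptprc, which encodes the heavily sialylated phosphatase CD45, had 48.2 and 44.2 RPKM with anti-SIGLEC15, against 15.9 and 51.6 RPKM with IgG, and Cd8b1, the other CD8 chain, 425 and 336 RPKM with anti-SIGLEC15, against 172 and 482 RPKM with IgG. Both were lowest in IgG replicate 1, the library with the lowest T cell level.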

How the data were processed

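Poly(A) RNA was selected with oligo-coated beads and, per the labels' protocols, sequenced on the DNBSEQ-G50 platform. Each deposited file holds 1 column of values, with no unit named, which the arithmetic that follows identified as RPKM made by the authors before they deposited them. Multiplied by a gene's summed exon length (GENCODE M21), a value was a whole multiple of 1 step per library, within 0.02, for 98.92% to 98.97% of genes with under 1000 reads, and the step gave the reads. GRCm38 and mm10 are the genome builds in the submitters' processing notes. Aligner, counter and strand setting were not given in the sources used here.

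Titles gave the groups of the 4 libraries. Nothing in the labels says that the pools of a treatment are independent beyond the mixing of 3 pellets each, so a p-value measures the spread between pools. The 12484 genes that reached 1 RPKM in 2 or more libraries were tested with limma on log2(RPKM + 1), with trend and robust shrinkage, and Benjamini-Hochberg adjustment over all of them. The pseudocount of 1 compresses fold changes of genes with low values. This fit was tested on simulated reads with known changes, in which libraries of a treatment differed by random spread only, unlike the deposited ones. It gave every recovered change its right sign, but its share of false calls was above the 0.05 threshold in each draw. Calls made with it can thus include more false ones than the threshold states. The members, lists and tests were chosen with earlier results of these data known. All members are named. Each pathway list is represented by its most abundant member and its member with the smallest p (3 others were named after their values were seen), and the markers by Cd8a, Cd3e, Alb, S100a9 and Cd68. Dcbld2, Trim14, Tbrg1, Spa17 and Ngef were named because their exons overlap members. Promoter windows and symbols came from RefSeq GRCm38.p6 and GENCODE M21.

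The alternatives were median-of-ratios scaling, scaling to T cell identity genes, no filter, a pseudocount of 0.1, limma-voom (at least 10 reads in at least 2 libraries), a fit blocked on replicate number and omission of each library. With a library left out, its partner was assumed to vary like the other treatment. Software was limma 3.58.1 in R 4.3.3, and scipy 1.17.1, numpy 2.4.6 and pandas 2.3.3 in Python 3.11.15, with plots from matplotlib 3.10.9.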

Additional observations from a re-analysis of the deposited data

How the results depend on the processing

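Median-of-ratios scaling, no filter, a pseudocount of 0.1, limma-voom and the replicate block called 0 genes and turned no direction of the 20 member fold changes. The replicate block kept the call count at 0, with 303 genes at an unadjusted p under 0.05 (146 without it). The deviations of same-numbered libraries correlated at 0.33, and the labels do not say that a number marks a shared batch, so the numbers were not treated as pairs. Without IgG replicate 1 there were 125 calls, and without IgG replicate 2 there were 2129, of which 1 was a sialic acid gene; the model's false calls exceeded its threshold on simulated reads. Leaving out a library gave 0 to 2129 calls over all genes and 0 to 1 over the members. Sialic acid genes higher with anti-SIGLEC15 numbered 1, but 2 under median-of-ratios scaling (Casd1 was added, and the share of all tested genes was 11.7%, from 12.1%). They numbered 0 under T cell scaling and 3 to 7 with a library left out. Lower ones numbered 2, but 3 under median-of-ratios scaling (Nans was added, and the share of all tested genes was 10.4%, from 6.02%). These numbered 0 under T cell scaling and 2 to 11 with a library left out. With a library left out, 2 libraries are set against 1 and separate more easily. The share of all tested genes was not counted for those fits, so their member counts cannot be compared with it. Under T cell scaling the share of all tested genes was 2.92% for higher and 13.6% for lower, and the median fold change of all was -0.59. These fold changes then turned: St3gal4 to -0.52, St3gal5 to -0.36, St3gal6 to -0.046, St6galnac4 to -0.42, Neu3 to -0.29, Npl to -0.13 and Casd1 to -0.39. The log2 ratios of the ST6GalNAc and the modifying enzyme sums turned to -0.74 and -0.68; beyond the shift of the median the cause was not tested.

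Over the fits without 1 library, the log2 ratio of sums ran from -0.37 to 0.26 for the ST3Gal genes, -1.60 to -0.13 for St6gal1, -0.10 to 0.30 for the ST6GalNAc genes, -0.086 to 1.91 for the ST8Sia genes, -0.34 to 0.014 for synthesis with activation, -0.33 to 0.23 for sialidases with the lyase, -0.10 to 0.46 for the modifying enzymes and -0.25 to 0.13 for all sialyltransferases. The log2 fold change of single members ran from -1.05 to 0.40 for St3gal1, -0.83 to 0.13 for St3gal2, -0.089 to 0.0093 for St3gal3, -0.17 to 0.43 for St3gal4, -0.19 to 0.35 for St3gal5, 0.52 to 0.69 for St3gal6, -1.15 to -0.0634 for St6gal1, -0.053 to 0.45 for St6galnac4, -0.11 to -0.0714 for St6galnac6, -0.0598 to 1.05 for St8sia4, -0.62 to 0.082 for Gne, -0.29 to 0.036 for Nans, -0.091 to 0.067 for Cmas, -0.63 to -0.0063 for Slc35a1, -0.39 to 0.25 for Neu1, -0.12 to 0.21 for Neu3, -0.0701 to 0.46 for Npl, 0.046 to 0.83 for Cmah, 0.0013 to 0.42 for Casd1 and -0.46 to -0.12 for Siae. The cause of these turns was not tested.

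Depth limits the members under the level for testing other than St6galnac3, which had 36 to 153 reads per library. It also limits 3 of the tested members, St3gal5 (18 to 46 reads per library), Npl (26 to 65) and Neu3 (35 to 60). The 2 pools per treatment limit all the members.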
